A study of Mus musculus with 4 samples.

Results

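The genes studied here are 10 transcripts of the lytic granule of killer lymphocytes: Prf1, Nkg7, Srgn, Ctsw, Ctsc, Lamp1, Serpinb9, Serpinb6b, Unc13d and Rab27a. They were chosen by gene symbol, and all 10 were found among the 36464 gene IDs of the deposited files. Expression was measured by poly(A) RNA sequencing of CD8+ T cells that had been enriched out of tumours grafted percutaneously into wild type male C57BL/6 mice. One group of 6 mice received an antibody against SIGLEC15 (anti-SIGLEC15) by intraperitoneal injection over 2 weeks, and the other 6 received IgG by the same route. Grafts were collected on day 19, and 3 samples were mixed for each library, which gave 2 libraries per treatment. Both treatments carried the same kind of graft, whose cell line the labels leave out. The comparison asks how lytic granule transcripts of these cells differ when SIGLEC15 is blocked.

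Killer T cells carry secretory lysosomes that hold perforin and granzymes on a proteoglycan core. When the cell meets a target, the granules move to the contact site, dock and fuse, and perforin opens the target membrane so that granzymes can enter. The killer cell protects itself with serpins that inactivate granzymes that leak into its own cytosol. Prf1 encodes perforin, and Nkg7 a granule membrane protein needed for efficient release. Srgn encodes serglycin, the proteoglycan core, and Lamp1 the lysosomal membrane protein known as CD107a, whose appearance on the surface marks degranulation. Ctsc encodes cathepsin C, which trims granzymes to their active form, and Ctsw encodes cathepsin W, a protease of killer cells. Rab27a encodes a small GTPase, and Unc13d encodes its partner Munc13-4. Both act in docking and priming. Serpinb9 and Serpinb6b encode granzyme inhibitors.

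The promoters of 4 of these genes are shown, picked after their values were seen. Prf1, Nkg7 and Serpinb6b were among the 9 members with their lowest level in the library with the lowest T cell gene level. Lamp1 had its highest level there. Ctsw and Unc13d had no window, and those of Srgn, Serpinb9, Ctsc and Rab27a are not shown. Each window runs from 250 bases before to 50 bases after the RefSeq start site on the plus strand of GRCm38.p6, and 8 of the 10 members matched an entry of that table. Capitals mark matches, on either strand, to the letters TGTGGT (RUNX core), AGGTGT (T-box core) or CAGGAA (a form of the ETS core).
Prf1, chr10:61297586-61297885: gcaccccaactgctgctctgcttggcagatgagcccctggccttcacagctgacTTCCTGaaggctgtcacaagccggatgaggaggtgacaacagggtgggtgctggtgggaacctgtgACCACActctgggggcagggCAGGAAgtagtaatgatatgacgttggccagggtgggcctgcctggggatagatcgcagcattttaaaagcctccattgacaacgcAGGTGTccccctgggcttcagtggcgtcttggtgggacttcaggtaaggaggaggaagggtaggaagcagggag
Nkg7, chr7:43436888-43437187: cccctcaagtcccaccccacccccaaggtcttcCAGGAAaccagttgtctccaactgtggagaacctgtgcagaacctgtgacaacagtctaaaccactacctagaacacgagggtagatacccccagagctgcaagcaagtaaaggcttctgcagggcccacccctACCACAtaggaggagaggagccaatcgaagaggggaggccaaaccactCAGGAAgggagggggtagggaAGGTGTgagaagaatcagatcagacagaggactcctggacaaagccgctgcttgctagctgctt
Serpinb6b, chr13:32965011-32965310: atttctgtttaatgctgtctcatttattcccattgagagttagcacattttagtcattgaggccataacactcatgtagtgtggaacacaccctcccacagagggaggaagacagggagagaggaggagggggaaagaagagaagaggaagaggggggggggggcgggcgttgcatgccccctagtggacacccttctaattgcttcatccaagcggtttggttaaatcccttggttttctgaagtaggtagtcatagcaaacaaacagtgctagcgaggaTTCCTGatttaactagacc
Lamp1, chr8:13158911-13159210: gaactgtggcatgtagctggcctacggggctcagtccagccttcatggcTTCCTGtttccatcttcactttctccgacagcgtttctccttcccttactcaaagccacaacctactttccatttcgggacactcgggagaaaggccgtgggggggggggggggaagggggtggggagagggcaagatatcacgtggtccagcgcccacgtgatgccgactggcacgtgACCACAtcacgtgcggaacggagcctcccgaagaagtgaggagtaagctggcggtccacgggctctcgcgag
The windows of Prf1 and Nkg7 each held 1 RUNX, 1 T-box and 2 ETS matches. In Prf1 the matches began at -196 (ETS), -130 (RUNX), -110 (ETS) and -24 (T-box) from the start site. The Serpinb6b window held 1 ETS match and no other, and the Lamp1 window 1 RUNX and 1 ETS match. None of these matches overlapped. Among 32851 windows of this length in the table, 16.76% held the RUNX letters, 13.74% the T-box letters and 30.55% the ETS letters. The letters were chosen with the values of these genes known, and a match is not a measured binding site. The Lamp1 window held 19 CpG dinucleotides, against 5 in Prf1, 3 in Nkg7 and 4 in Serpinb6b. High counts were not particular to Lamp1. Among the windows not shown, those of Rab27a held 18 and 6 and that of Ctsc 12. Those of Srgn held 4 and 8 and that of Serpinb9 held 5. The median over all windows was 7.

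The 4 libraries held between 14854802 and 16026197 reads counted in genes, and IgG replicate 1 stood apart from the other libraries in its T cell genes. The T cell identity level, the geometric mean of RPKM + 1 less 1 over 20 genes, was 36.1 and 37.8 in the anti-SIGLEC15 libraries, against 13.7 in IgG replicate 1 and 38.7 in IgG replicate 2. RPKM is a read count scaled to exon length and to all counted reads of the library. All 19 tested genes of that list were lowest in IgG replicate 1. The CD8 coreceptor genes were also lowest in IgG replicate 1 and highest in IgG replicate 2. Cd8a had 290 and 315 RPKM with anti-SIGLEC15, against 115 and 351 RPKM with IgG, and Cd8b1 had 425 and 336 RPKM, against 172 and 482 RPKM. Cd3d, a chain of the T cell receptor complex, had 172 and 192 RPKM with anti-SIGLEC15, against 75.3 and 209.9 RPKM with IgG. Cd3e, another chain, had 31.4 and 30.2 RPKM with anti-SIGLEC15, against 11.03 and 35.9 RPKM with IgG. The label of T cells thus rests on detected markers in every library. Across genes, the anti-SIGLEC15 libraries correlated at 0.972 with each other, and the IgG libraries at 0.884. These are correlations over 12484 genes on the log2 scale, and genes are not independent replicates.

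The lytic granule transcripts lay between 9.17 RPKM (Ctsc in IgG replicate 1) and 1438 RPKM (Nkg7 in IgG replicate 2), and each rested on at least 767 reads in every library. The spread below is therefore a spread between libraries far more than a counting error. Nkg7 ranked first and Srgn second in all 4 libraries. Prf1, Serpinb6b and Ctsw exchanged places between ranks 3 and 7. Rab27a, Ctsc and Unc13d had between 9.17 and 38.6 RPKM in all libraries, and their order differed between libraries. As deposited, 9 of the 10 members had their lowest level in IgG replicate 1, and Lamp1 had its highest there. The share over all tested genes was not counted. Of the tested genes in lists described below, 13 of 18 for biogenesis and transport and 11 of 19 for docking and fusion were lowest there. The count was 3 of 8 for granzymes, 5 of 14 for the lysosomal list and 2 of 5 for clade B serpins. Only Ctsw lay apart between the treatments, higher in both anti-SIGLEC15 libraries. A group of libraries lay apart in this way, higher with anti-SIGLEC15, for 12.1% of 12484 tested genes. None of the members lay lower in both anti-SIGLEC15 libraries, where 6.02% of tested genes did. In bulk RNA, fewer cells of a type and less RNA per cell cannot be told apart.

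**Figure D1:**
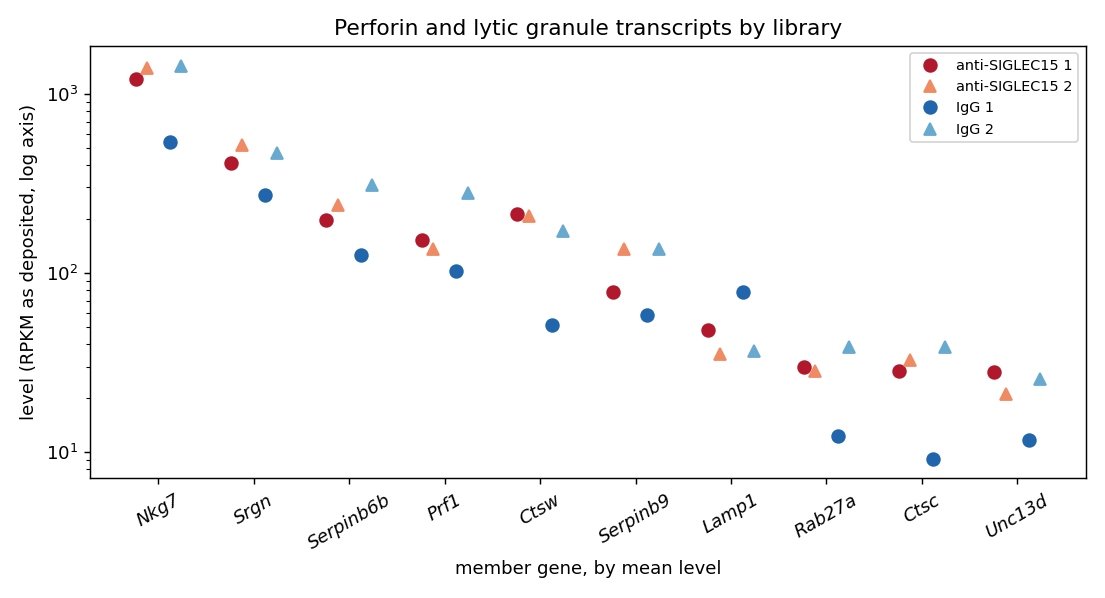
Level of each member gene in RPKM as deposited (log axis), 1 point per library, with the anti-SIGLEC15 libraries (red and orange) left of the IgG libraries (blue). IgG replicate 1 (dark blue circles) is the lowest point of every gene but Lamp1, where it is the highest at 78.1 RPKM.

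No member passed the test, limma on log2(RPKM + 1) with Benjamini-Hochberg adjustment over all 12484 genes: the adjusted p was 1 for each of the 10. The share called among all tested genes was 0%, with 146 genes, or 1.17%, at an unadjusted p under 0.05. None of these was a member. limma-voom on the recovered reads also called 0 of 15061 genes. The median log2 fold change of the members was 0.38, beside 0.02 over all tested genes. Without IgG replicate 1 the median was -0.24, so its direction depended on that library. Leaving out an IgG library also changed how many genes were called. As deposited, limma called 1.13% of 11977 genes (135) without IgG replicate 1, and 18.6% of 12091 genes (2251) without IgG replicate 2. The members' adjusted p-values from the second of these fits, given below, stand beside that share. With each library a mixture, the p-values describe the spread between mixtures and not between mice. With 2 libraries against 2, an exact permutation test cannot give a two-sided p under 0.333.

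Perforin transcripts did not separate the treatments. Prf1 (ENSMUSG00000037202, GRCm38 chromosome 10, 61297833 to 61304680, plus strand) had 153 and 136 RPKM in the anti-SIGLEC15 libraries, against 102 and 280 RPKM in the IgG libraries. The IgG values enclosed both anti-SIGLEC15 values, with means of 145 ± 12.5 RPKM with anti-SIGLEC15 and 191 ± 126 RPKM with IgG (SD, n = 2 each). Its log2 fold change, taken on log2(RPKM + 1), was -0.23 (SE 0.51). Which IgG library was kept decided the direction. Without IgG replicate 1 the log2 fold change of Prf1 was -0.95 (limma, adjusted p = 0.0123), and with IgG replicate 2 left out it was 0.49 (adjusted p = 0.224).

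Of the other proteins that fill or bound the granule, Nkg7 and Srgn had 3 similar libraries and a low one. Nkg7 (ENSMUSG00000004612, chromosome 7, 43437073 to 43438249) had 1213 and 1398 RPKM with anti-SIGLEC15, against 542 and 1438 RPKM with IgG. Srgn (ENSMUSG00000020077, chromosome 10, 62493833 to 62527451, minus strand) had 409 and 517 RPKM with anti-SIGLEC15, against 272 and 465 RPKM with IgG. In both genes the groups overlapped, and IgG replicate 1 was the low library. The log2 fold change was 0.56 (SE 0.49) for Nkg7 and 0.37 (SE 0.33) for Srgn. Without IgG replicate 1 these were -0.14 and -0.015, and without IgG replicate 2 they were 1.26 and 0.76, with adjusted p = 2.51e-07 and 0.0106 in limma.

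Lamp1 (ENSMUSG00000031447, chromosome 8, 13159161 to 13175338) had an order of libraries unlike that of the other members. Its level was 48.2 and 35.2 RPKM with anti-SIGLEC15, against 78.1 and 36.5 RPKM with IgG. Its 2 higher libraries, IgG replicate 1 and anti-SIGLEC15 replicate 1, were also those with the higher levels of hepatocyte and hepatoma genes. That list of 10 genes had a geometric mean of RPKM + 1, less 1, of 111 and 40.5 with anti-SIGLEC15, and of 152 and 45.6 with IgG. Lamp1 is made by most cell types, and the part of other cells in its level was not tested. Its log2 fold change was -0.37 (SE 0.44). With IgG replicate 1 left out it was 0.17, and with IgG replicate 2 left out it was -0.91 (limma, adjusted p = 0.021). Grtp1, on the opposite strand, shares 249 exon bases with Lamp1 and had 1.17 and 0.790 RPKM with anti-SIGLEC15, against 3.14 and 0.583 RPKM with IgG. Whether strand was used in counting is not stated, so reads over such shared bases cannot be told apart.

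Of the protease genes, Ctsw separated the treatments and Ctsc did not. Ctsw (ENSMUSG00000024910, chromosome 19, 5465043 to 5468507, minus strand) had 212 and 209 RPKM with anti-SIGLEC15, against 51.3 and 172 RPKM with IgG. Both anti-SIGLEC15 libraries were above both IgG libraries, as was the case for 12.1% of all tested genes. The means of Ctsw were 211 ± 2.07 RPKM with anti-SIGLEC15 and 111 ± 85.0 RPKM with IgG (SD, n = 2 each). Its log2 fold change of 1.16 (SE 0.59) was the largest among the members and did not pass the test (limma, unadjusted p = 0.109). With no overlap between the groups, leaving out any 1 library could not turn the direction of the Ctsw fold change. That fold change ran from 0.30 without IgG replicate 1 to 2.02 with IgG replicate 2 left out. Fibp, on the opposite strand, shares 9 exon bases with Ctsw and had between 5.77 and 7.07 RPKM. Ctsc (ENSMUSG00000030560, chromosome 7, 88278085 to 88310888) had 28.4 and 32.7 RPKM with anti-SIGLEC15, against 9.17 and 38.6 RPKM with IgG. The IgG libraries of Ctsc enclosed the other two. Its log2 fold change was 0.65 (SE 0.67). With IgG replicate 1 left out it was -0.33, and with IgG replicate 2 left out it was 1.63 (limma, adjusted p = 5.64e-05).

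The docking pair had low levels that overlapped between the treatments. Rab27a (ENSMUSG00000032202, chromosome 9, 73044854 to 73097629) had 29.9 and 28.4 RPKM with anti-SIGLEC15, against 12.3 and 38.6 RPKM with IgG. Unc13d (ENSMUSG00000057948, chromosome 11, 116062095 to 116077961, minus strand) had 27.9 and 21.03 RPKM with anti-SIGLEC15, against 11.6 and 25.7 RPKM with IgG. In each gene IgG replicate 1 was the lowest library. Rab27a shares 149 exon bases with the pseudogene Gm27186, which had at most 0.439 RPKM. The log2 fold change was 0.39 (SE 0.56) for Rab27a and 0.46 (SE 0.44) for Unc13d. Without IgG replicate 1 these were -0.39 and -0.082, and without IgG replicate 2 they were 1.18 and 1.00, with adjusted p = 0.00535 and 0.0251 in limma.

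The granzyme inhibitors lie close to each other on chromosome 13, Serpinb6b (ENSMUSG00000042842) from 32965209 to 32979067 and Serpinb9 (ENSMUSG00000045827) from 33003250 to 33017957. Serpinb6b had 198 and 238 RPKM with anti-SIGLEC15, against 125 and 311 RPKM with IgG. Serpinb9 had 78.1 and 136 RPKM with anti-SIGLEC15, against 57.9 and 136 RPKM with IgG. The IgG libraries enclosed both anti-SIGLEC15 values in each gene. Their log2 fold changes were 0.14 (SE 0.48) and 0.21 (SE 0.52). Without IgG replicate 1 these were -0.51 and -0.40, and without IgG replicate 2 they were 0.79 and 0.82, with adjusted p = 0.0167 and 0.0278 in limma. Without anti-SIGLEC15 replicate 2 the value of Serpinb9 was -0.18. Related serpin genes share little sequence with them: 2.92% of the 50-base stretches of Serpinb6b transcripts and 0.378% of those of Serpinb9 occur in transcripts of other genes.

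Because the level of T cell genes differed between libraries, the members were also measured against it. Each library was divided by its T cell identity level relative to the geometric mean of the 4 libraries, and limma was fitted again over 12090 genes. This scaling moved the median log2 fold change of all tested genes to -0.56, and that of the T cell identity genes to -0.03. On this scale the members' median was -0.28. None of the 10 members was called, as was the case for 0% of all tested genes, with 59 at an unadjusted p under 0.05. limma-voom with the same scaling called 0 of 15061 genes.

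Relative to T cell genes, Prf1 lay lower in both anti-SIGLEC15 libraries. Its scaled level was 124 and 105 RPKM with anti-SIGLEC15, against 217 and 211 RPKM with IgG. The groups did not overlap, and their means were 114 ± 13.6 RPKM with anti-SIGLEC15 and 214 ± 4.29 RPKM with IgG (SD, n = 2 each), a ratio of 0.535. The scaled log2 fold change of Prf1 was -0.90 (SE 0.78), which was -0.34 relative to the median of all genes, and its adjusted p in limma was 0.826. With IgG replicate 1 left out it was -0.88 (limma, adjusted p = 0.254), and with IgG replicate 2 left out it was -0.92 (adjusted p = 0.0107). In that fit 67.3% of genes were called, 7993 of 11882, and the median of all genes was -1.17. The scaled log2 fold changes of the 19 tested T cell identity genes ran from -0.55 (Cd247) to 0.68 (Cd5). These genes set the scale, so their values lie around 0 by construction. Their range is thus no independent yardstick for Prf1, which lay below it.

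Other members lay apart on the T cell scale by smaller amounts. Serpinb6b had a scaled 160 and 184 RPKM with anti-SIGLEC15, against 266 and 234 RPKM with IgG, a log2 fold change of -0.54 (SE 0.79). Rab27a had a scaled 24.2 and 21.9 RPKM with anti-SIGLEC15, against 26.2 and 29.1 RPKM with IgG, a log2 fold change of -0.25 (SE 0.74). Nkg7 had a scaled 981 and 1080 RPKM with anti-SIGLEC15, against 1151 and 1083 RPKM with IgG, and its log2 fold change was -0.12 (SE 0.81). Relative to the median of all genes, the scaled log2 fold changes of Serpinb6b, Rab27a and Nkg7 were 0.023, 0.31 and 0.44. None of these genes thus fell more than the median gene did. For Nkg7 the nearest libraries of the groups differed by a few RPKM, and the direction turned to 0.069 when Cd8a and Cd8b1 set the scale. Ctsw was the one member that lay higher on this scale, with 172 and 162 RPKM with anti-SIGLEC15, against 109 and 129 RPKM with IgG. Its scaled log2 fold change was 0.49 (SE 0.78), or 1.04 relative to the median of all genes.

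On the T cell scale 4 members in all lay lower with anti-SIGLEC15 and 1 lay higher, where 14.9% of all tested genes lay lower and 2.85% higher. Of the 19 tested T cell identity genes themselves, 7 lay lower and 6 higher in this way. The remaining 5 members overlapped between the treatments after scaling. Lamp1 had a scaled 38.9 and 27.2 RPKM with anti-SIGLEC15, against 166 and 27.5 RPKM with IgG, and its log2 fold change of -1.04 (SE 0.91) rested on IgG replicate 1. Without that library it was 0.24. Srgn, Serpinb9, Unc13d and Ctsc had scaled log2 fold changes of -0.31, -0.46, -0.18 and 0.016. Without IgG replicate 2 the scaled log2 fold changes of Lamp1, Srgn and Prf1 were -2.31, -0.67 and -0.92. The median of all genes in that fit was -1.17, so Srgn and Prf1 fell less than the median gene.

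**Figure D2:**
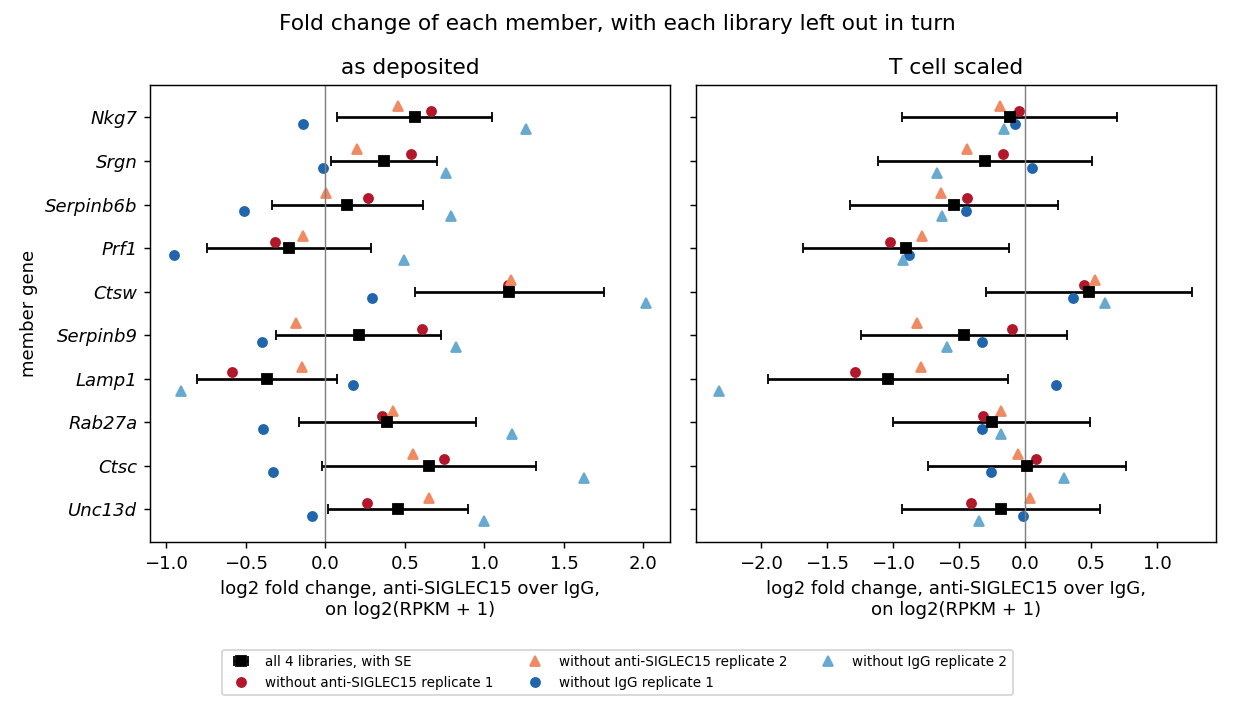
Log2 fold change of each member, anti-SIGLEC15 over IgG, on log2(RPKM + 1), as deposited (left) and scaled to T cell identity genes (right). Black squares are the fit to all 4 libraries with its SE, and coloured points leave out the library named. As deposited, Prf1 moves between -0.95 and 0.49 with the IgG library left out. On the T cell scale its groups do not overlap, so its sign could not turn, and its 4 points lie between -1.02 and -0.78.

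Ratios between genes of the same library need no scaling. They separated the treatments for Prf1 and Ctsw over all 4 genes plotted, for Serpinb6b over 3 of them and for Rab27a over 2. The share of all genes that separate in such ratios was not counted, so these counts have no background. The ratio of Prf1 to Cd3e was 4.89 and 4.50 with anti-SIGLEC15, against 9.27 and 7.81 with IgG, and the ratio of Prf1 to Cd8a was 0.529 and 0.431, against 0.889 and 0.798. Prf1 was also lower relative to Nkg7, with ratios of 0.127 and 0.0971 with anti-SIGLEC15, against 0.189 and 0.195 with IgG. Its ratio to Gzmb, the most abundant granzyme gene, was 0.104 and 0.122 with anti-SIGLEC15, against 0.128 and 0.210 with IgG, so that the nearest libraries almost met. The ratio of Serpinb6b to Nkg7 was 0.164 and 0.170 with anti-SIGLEC15, against 0.231 and 0.216 with IgG. The ratio of Ctsw to Nkg7 was 0.175 and 0.150 with anti-SIGLEC15, against 0.0947 and 0.119 with IgG. Over Gzmd, whose own level was lower with anti-SIGLEC15, the order turned: Prf1 had ratios of 2.45 and 2.77 with anti-SIGLEC15, against 0.70 and 1.38 with IgG. The ratio of Rab27a to Cd3e was 0.952 and 0.940 with anti-SIGLEC15, against 1.119 and 1.075 with IgG, and its ratio to Cd8a was 0.103 and 0.0900, against 0.107 and 0.110. The ratios of Rab27a to Nkg7 and to Gzmb, and of Nkg7 to Cd3e, overlapped between the treatments. These ratios are descriptions without a test, and they share the levels described above.

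**Figure D3:**
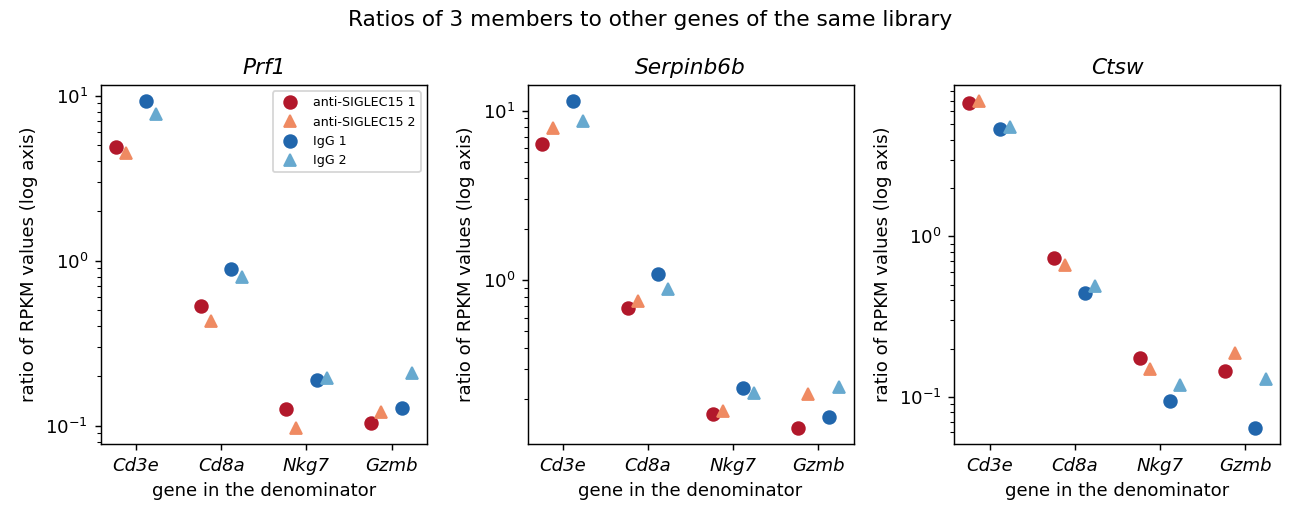
Ratio of the RPKM of Prf1, Serpinb6b and Ctsw to that of Cd3e, Cd8a, Nkg7 and Gzmb in the same library (log axes), 1 point per library, anti-SIGLEC15 left of IgG. Prf1 lies lower in both anti-SIGLEC15 libraries over each of the 4 genes and Ctsw higher, while Serpinb6b over Gzmb overlaps.

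Shares of the set, drawn from the same values, lay apart for Prf1, Serpinb6b, Ctsw and Nkg7. How often shares lie apart in other sets of genes was not counted, so this has no background. Shares of a common sum also depend on each other, and a lower share of Nkg7 leaves more for the rest. For Nkg7 the share was higher with anti-SIGLEC15, unlike its order on the T cell scale. The share of Rab27a overlapped, with 1.25% and 1.03% with anti-SIGLEC15, against 0.98% and 1.31% with IgG. Nkg7 made up 50.6% and 50.8% of the summed RPKM of the 10 genes with anti-SIGLEC15, against 43.0% and 48.9% with IgG. Prf1 made up 6.40% and 4.93% with anti-SIGLEC15, against 8.10% and 9.53% with IgG. For Serpinb6b the share was 8.27% and 8.66% with anti-SIGLEC15, against 9.93% and 10.6% with IgG. For Ctsw it was 8.84% and 7.60% with anti-SIGLEC15, against 4.07% and 5.83% with IgG. The summed RPKM of the set was 2398 and 2752 with anti-SIGLEC15, against 1261 and 2941 with IgG, so that the groups overlapped in total. Depth is not known for a share of RPKM, and no interval is given.

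Around these members, the granzyme genes lay on both sides of no change. Of 10 listed granzymes 8 were tested, and of these 0 were called, 1 lay higher and 5 lay lower with anti-SIGLEC15. Over the whole table these shares were 12.1% for higher and 6.02% for lower. Of the 8 granzymes 6 had an unadjusted p under 0.05 in limma, beside 1.17% of all tested genes, and the median log2 fold change was -0.99. Gzmb had 1474 and 1115 RPKM with anti-SIGLEC15, against 799.8 and 1334 RPKM with IgG. Gzmk, the higher one, had 184 and 182 RPKM with anti-SIGLEC15, against 40.9 and 112 RPKM with IgG. Gzma had 383 and 44.4 RPKM with anti-SIGLEC15, against 34.2 and 69.1 RPKM with IgG, so a single library was high. The 5 lower genes were Gzmc, Gzmd, Gzme, Gzmf and Gzmg, close relatives that can share reads. These 5 were singled out after their values were seen.

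The lists of genes that dock, fuse and build granules had medians near 0. Of 22 docking and fusion genes 19 were tested, 0 were called and 3 lay higher with anti-SIGLEC15: Stx4a, Sytl1 and Arl8b, named after their values were seen. This count stands beside 12.1% over the whole table. The median log2 fold change of this list was 0.08. Stxbp2, which encodes the syntaxin partner Munc18-2, had 30.3 and 29.8 RPKM with anti-SIGLEC15, against 26.7 and 32.7 RPKM with IgG. Rab7, a GTPase of late endosomes, had 74.8 and 71.7 RPKM with anti-SIGLEC15, against 85.3 and 67.9 RPKM with IgG. Vamp2, a vesicle fusion protein, had 25.8 and 35.0 RPKM, against 19.7 and 30.5 RPKM. All 18 biogenesis and transport genes were tested, 0 were called and 4 lay higher (Hps4, Hps6, Bloc1s3 and Plekhm2, named after their values were seen), beside the same 12.1%, with a median of 0.11. Ap3s1 and Ap3b1, subunits of the lysosomal sorting adaptor AP-3, and the motor gene Kif5b overlapped between the treatments.

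The lysosomal list held genes lowest in IgG replicate 1 beside genes highest there. Of its 16 genes 14 were tested, 0 were called and 0 lay apart, with a median log2 fold change of -0.32. Cst7 encodes cystatin F, an inhibitor of cathepsin C. It had 237 and 273 RPKM with anti-SIGLEC15, against 119 and 320 RPKM with IgG, the order of Ctsc. Laptm5, a lysosomal membrane protein of blood cells, had 305 and 368 RPKM, against 136 and 412 RPKM. Calr encodes the chaperone calreticulin. It had 345 and 234 RPKM with anti-SIGLEC15, against 493 and 264 RPKM with IgG, the order of Lamp1. In this list 9 tested genes were highest and 5 lowest in IgG replicate 1. Of 16 other clade B serpin genes 5 were tested and 0 were called, with a median of -0.06. Serpinb6a lay lower, with 31.3 and 31.2 RPKM with anti-SIGLEC15, against 60.3 and 32.7 RPKM with IgG, and Serpinb1a lay higher, with 9.41 and 9.82 RPKM, against 4.04 and 8.65 RPKM.

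**Figure D4:**
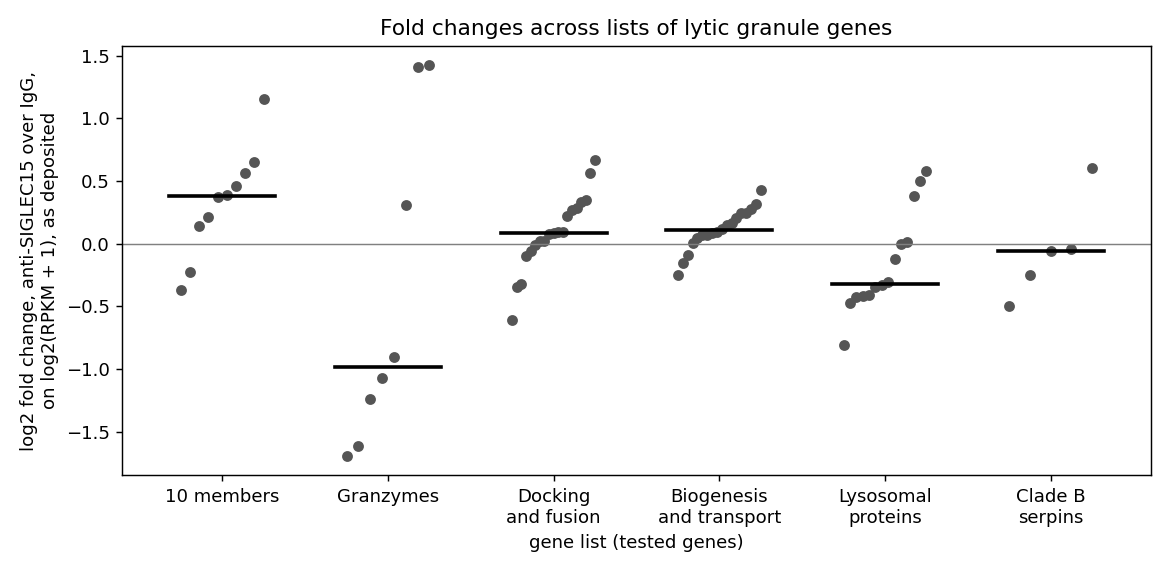
Log2 fold change of each tested gene, anti-SIGLEC15 over IgG, on log2(RPKM + 1) as deposited, for the 10 members and 5 lists of granule genes. Bars are medians, from 0.38 for the members to -0.99 for the granzymes, and points are spread sideways within a list by rank.

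Markers of other cells were present at levels that differed between libraries. Hepatocyte and hepatoma genes summed to 2854 and 1444 RPKM with anti-SIGLEC15, against 6719 and 1368 RPKM with IgG, and 6 of 9 tested genes were highest in IgG replicate 1. Among them Alb, which encodes albumin, had 1089.5 and 625 RPKM with anti-SIGLEC15, against 2795 and 556 RPKM with IgG. None of its 10 genes was at 0 in any library. Neutrophil genes summed to 216 and 369 RPKM with anti-SIGLEC15, against 849.8 and 68.3 RPKM with IgG, with 7 of 7 tested genes highest in IgG replicate 1 and Mpo, Elane and Camp at 0 in some library. S100a9, a calcium-binding protein of neutrophils, had 149 and 245 RPKM with anti-SIGLEC15, against 579 and 46.7 RPKM with IgG. Macrophage genes summed to 577 and 276 RPKM with anti-SIGLEC15, against 1564 and 273 RPKM with IgG, with 3 of 5 tested genes highest in IgG replicate 1. Most of each macrophage sum was Apoe, while C1qa had between 0.613 and 1.86 RPKM in all libraries and was highest in IgG replicate 2. The part of these cells in the levels of Srgn, Lamp1 and Ctsc, which they also express, was not tested. Natural killer cells use the same granule genes, and 4 genes of a list of 8 natural killer genes, Ncr1, Klrb1c, Klra8 and Klra4, were below 1 RPKM in every library. Ncr1 had 0.372 and 0.0437 RPKM with anti-SIGLEC15, against 0.0810 and 0 RPKM with IgG, and Klrb1c had 0.732 and 0.136 RPKM, against 0 and 0.109 RPKM. The other 4 genes of the list, of which Eomes and Gzma are also known from CD8+ T cells, were lowest in IgG replicate 1 like 9 of the members. Klre1 had 31.3 and 37.6 RPKM with anti-SIGLEC15, against 9.25 and 35.2 RPKM with IgG, and Eomes had 21.8 and 18.2 RPKM, against 5.11 and 22.6 RPKM. Klri2 had 6.41 and 11.0 RPKM with anti-SIGLEC15, against 3.32 and 11.2 RPKM with IgG, and Gzma is given above. The part of natural killer cells in the members' levels was not tested. The whole list summed to 444 and 112 RPKM with anti-SIGLEC15, against 52.4 and 139 RPKM with IgG, and Gzma made up most of the highest sum. B cell genes summed to at most 1.99 RPKM in any library, and 0 of 6 passed the filter, with Cd79a at 0.481 and 0.554 RPKM with anti-SIGLEC15, against 0.128 and 0.265 RPKM with IgG. Red cell genes summed to 113 and 19.9 RPKM with anti-SIGLEC15, against 691 and 1929 RPKM with IgG, with 5 of 5 lower. Hbb-bs, a beta globin gene, had 53.7 and 9.55 RPKM with anti-SIGLEC15, against 360.0 and 986 RPKM with IgG.

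**Figure D5:**
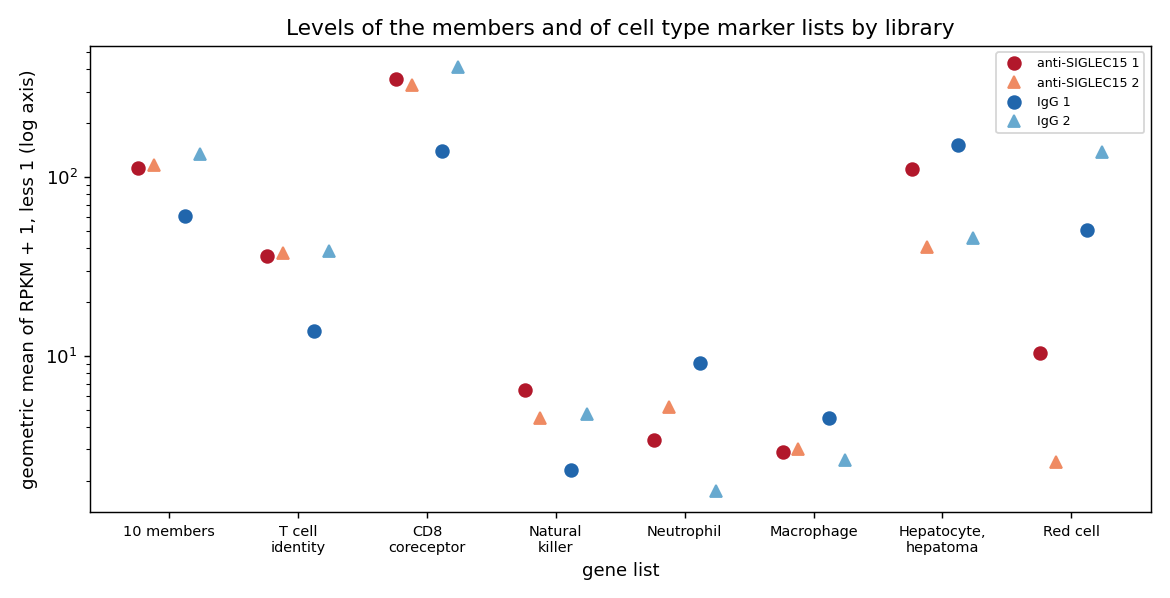
Geometric mean of RPKM + 1, less 1, of the 10 members and of 7 marker lists (log axis), 1 point per library, anti-SIGLEC15 left of IgG. The members and the T cell lists share IgG replicate 1 as their lowest library (60.7 for the members), which is the highest for neutrophil, macrophage and hepatocyte genes.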

How the data were processed

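The members, the gene lists and the T cell scaling were chosen with earlier results of these data known. The deposited files hold 1 value per gene ID and library in a unit they do not name. The values were taken as RPKM made by the authors. In each library a value times its exon length in GENCODE M21 (GRCm38) was, within 0.02, a whole multiple of 1 step for 98.9% to 99.0% of genes under 1000 reads. The step gave the counted reads and the recovered reads. Builds named in the submitters' processing notes are GRCm38 and mm10. Neither aligner nor counter is given in the sources used here, nor whether strand was used. Symbols came from GENCODE M21, which held 36386 of 36464 IDs.

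Groups follow the titles. Genes that reached 1 RPKM in 2 or more libraries were tested with limma 3.58.1 (R 4.3.3; trend, robust) on log2(RPKM + 1), two-sided, at a Benjamini-Hochberg adjusted p of 0.05; fold changes on this scale understate those of low genes. The test was run on simulated reads with known changes, where it let through a larger share of unchanged genes among its calls than the threshold names. The T cell scale divides each library by its level of 20 T cell identity genes, a list without members. Named genes were all members, the 3 most abundant tested genes of each granule list, the first gene of each marker list, Cd3e, Cd8a, Cd8b1 and genes overlapping a member. All other genes named were chosen after their values were seen. Alternatives were other scalings, filters, a pseudocount of 0.1, limma-voom on recovered reads with at least 10 reads in 2 libraries, a replicate block, and leaving out 1 library at a time, where the lone library of its group is assumed to vary like the other group. Promoter windows came from RefSeq on GRCm38.p6. Python 3.11.15, pandas 2.3.3, numpy 2.4.6 and matplotlib 3.10.9 were used.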

Additional observations from a re-analysis of the deposited data

How the results depend on the processing

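No member was called under another pseudocount, filter or scaling, with limma-voom, or with the replicate block, on either scale. Leaving out each of the 4 libraries in turn, 0 to 9 members were called as deposited and 0 to 3 on the T cell scale. As deposited these calls were 1 member without IgG replicate 1, beside 1.13% of all genes, and 9 without IgG replicate 2, beside 18.6%. On the T cell scale the 3 came without IgG replicate 2, beside 67.3%. With 1 IgG library the anti-SIGLEC15 pair, the closer of the pairs, sets the spread. Leaving out each library, members higher in both anti-SIGLEC15 libraries numbered 1 to 9 and members lower 0 to 6 as deposited. On the T cell scale they numbered 1 to 2 and 5 to 8. The matching shares of all genes were not counted. With 1 library left in a group, the groups lie apart more easily. The median log2 fold change of the members ran from -0.24 to 0.91 as deposited and from -0.47 to -0.17 on the T cell scale. T cell identity scaling, set against the deposited scale, made 4 members lower and the median -0.28, and reversed Nkg7 (-0.12), Srgn (-0.31), Serpinb9 (-0.46), Serpinb6b (-0.54), Unc13d (-0.18) and Rab27a (-0.25); the scale itself differs by the T cell level of IgG replicate 1. With CD8 coreceptor scaling in place of it the median was -0.10 and Nkg7 was 0.069. With limma-voom on the T cell scale Ctsc was -0.0035 in place of 0.016. The causes of these 2 reversals were not tested.

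Leaving out single libraries turned the direction of 9 members as deposited. Their ranges were -0.95 to 0.49 for Prf1, -0.14 to 1.26 for Nkg7, -0.015 to 0.76 for Srgn, -0.33 to 1.63 for Ctsc, -0.91 to 0.17 for Lamp1, -0.40 to 0.82 for Serpinb9, -0.51 to 0.79 for Serpinb6b, -0.082 to 1.00 for Unc13d and -0.39 to 1.18 for Rab27a. On the T cell scale Srgn (-0.67 to 0.054), Ctsc (-0.26 to 0.29), Lamp1 (-2.31 to 0.24) and Unc13d (-0.41 to 0.040) turned direction. Prf1 (-1.02 to -0.78), Serpinb6b (-0.63 to -0.44), Nkg7 (-0.19 to -0.048), Rab27a (-0.32 to -0.18) and Ctsw (0.36 to 0.61) kept theirs. The groups did not overlap in these genes, so their direction could not turn. Serpinb9 (-0.82 to -0.099) also kept its direction, although its groups overlapped.

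The replicate numbers are shared by the groups, but nothing in the labels says that they pair libraries. The deviations of replicate 1 from its group mean correlated weakly between the treatments, at 0.33 across 12484 genes. Among the members, Prf1, Ctsw, Unc13d and Rab27a deviated in opposite directions in the 2 treatments, and the other members in the same direction. With the replicate block 0 members were called on either scale, and 0 genes as deposited and 15 on the T cell scale. The stricter filter at 5 RPKM on the T cell scale called 10 genes, against 0, and no member.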

Other observations

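Serpinb9 and its close relative Serpinb9b both had the higher level in the replicate 2 library of each treatment. This order was not particular to them. Nkg7, Srgn, Serpinb6b and Ctsc also had it, while Prf1, Ctsw, Lamp1, Unc13d and Rab27a did not. Serpinb9b had 13.8 and 35.1 RPKM with anti-SIGLEC15, against 15.4 and 34.3 RPKM with IgG, beside 78.1 and 136 RPKM, against 57.9 and 136 RPKM, for Serpinb9. Transcripts of Serpinb9 share 13 of 3442 stretches of 50 bases with other genes, all with Serpinb9b. Stx11, a syntaxin needed for granule fusion, singled out after its values were seen, had 12.5 and 25.1 RPKM with anti-SIGLEC15, against 10.01 and 19.1 RPKM with IgG. The labels do not say what the replicate numbers stand for.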
